A study of Saccharomyces cerevisiae with 63 samples.

Results

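The comparison described here is between the ime4 mutant and WT at the last time of a meiotic time course, 9 h after diploid budding yeast cells were moved to sporulation medium. It rests on 6 of the 63 RNA-seq libraries of the series, 3 of ime4 and 3 of WT, and takes in every gene of the count table, 6088 in all, of which 5822 passed the filter on low counts and were tested. The ime4 strain carries a mutation of IME4 for which the labels name no allele. Both strains are SK1 diploids in which IME1 is driven by a copper-inducible CUP promoter (pCUP-IME1), both stood in 0.3% potassium acetate, and both received 50 µM copper sulfate at 2 h. The pho92 mutant at 9 h, and ime4 and WT at 7 h, are used below only where named; these strains share the same background, promoter and copper treatment. The 3 libraries of each strain and time are biological replicates per the series' design text, and RNA was selected for poly(A) tails before sequencing.

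Sporulation runs as a cascade of transcription. Ime1, held at URS1 elements by the DNA-binding protein Ume6, turns on the early genes of DNA replication and recombination, and the kinase Ime2 acts with it. Ndt80 then binds middle sporulation elements (MSEs) and turns on the middle genes, which carry the cells through both meiotic divisions, the enclosure of the nuclei by prospore membranes and the laying down of the spore wall, and a late set of wall genes follows. Ime4 is the enzyme that places N6-methyladenosine (m6A) on yeast mRNAs in early meiosis, and Pho92 is the YTH-domain protein that reads this mark.

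The mutated gene was close to absent in its own mutant. The 3 ime4 libraries held 7, 0 and 3 reads of IME4 (YGL192W, chromosome VII, 142246 to 144048 on the R64 reference), 10 reads in all, against 633, 490 and 492 reads in WT, 1615 in all. The log2 fold change from the fit was -7.17 ± 0.319 (SE), with an adjusted p of 2.35e-23 (edgeR quasi-likelihood test, Benjamini-Hochberg over all genes tested, as throughout). The libraries held 14780559, 18123674 and 16416661 counts in ime4 and 14999986, 16789795 and 16204690 in WT. Pearson's r of log2 CPM between replicates, across genes, was 0.980 to 0.994 in ime4 and 0.990 to 0.997 in WT, and ime4 replicate 2 was the library least like the others of its strain. CPM is the count of a gene scaled to a fixed total per library (counts-per-million), with library sizes adjusted by trimmed means of M-values (TMM).

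At 9 h the strains differed over most of the transcriptome. Of the 5822 genes tested, 4671 (80.2%) passed an adjusted p of 0.05, 2733 higher in ime4 (46.9%) and 1938 lower (33.3%). The counts of every gene list below are to be read beside these shares. The change reached at least 2-fold for 1787 genes higher in ime4 (30.7%) and for 1289 genes lower (22.1%). For 79.8% of the genes the 3 ime4 libraries lay wholly above or wholly below the 3 WT libraries. Log2 fold changes ranged from -2.998 at the 5th percentile to 2.22 at the 95th, with a median of 0.31, so a gene or list at 0.31 is an average one here. This median depends on the scaling: it was 0.15 with library totals alone and 0.01 when only the 6 libraries were fitted, where calls were 2183 higher and 2208 lower. In the authors' deposited table, made with DESeq2, 2847 genes were called higher and 1889 lower, and 4612 genes were called with the same sign in both analyses and 0 with opposite signs. These counts describe relative levels: in RNA of whole cultures, fewer cells of a kind and less RNA per cell cannot be told apart.

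**Figure D1:**
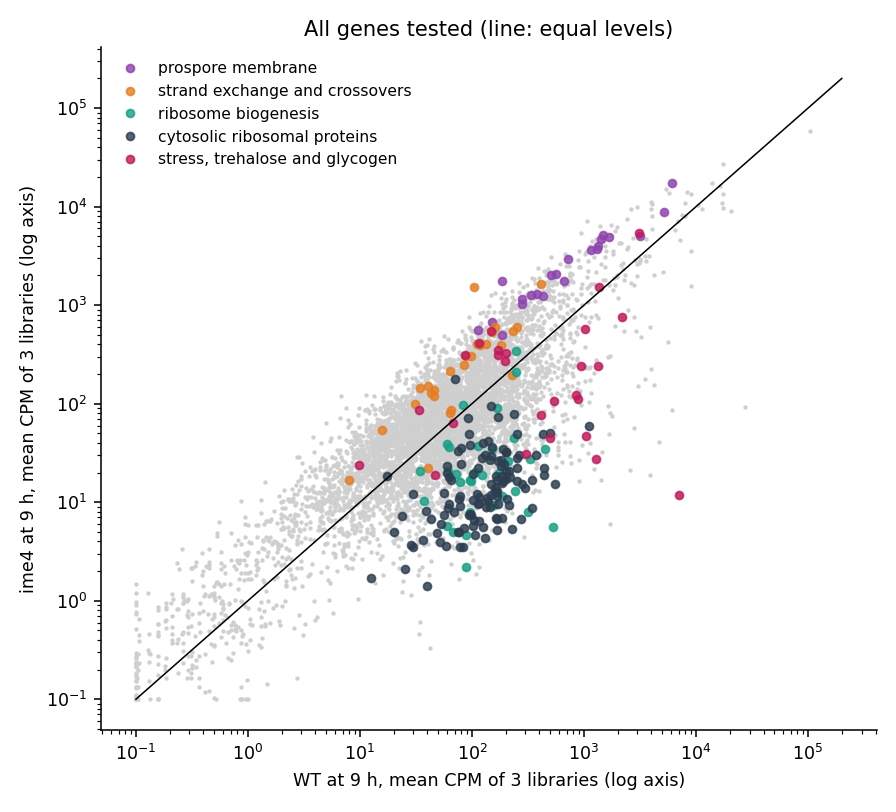
Mean CPM of 3 libraries at 9 h, ime4 on the vertical axis and WT on the horizontal axis, both logarithmic, for the 5822 genes tested (grey; means under 0.1 are drawn at 0.1) with 5 gene lists in colour. Ribosomal protein and ribosome biogenesis genes lie below the line of equal levels, with 114 of 118 and 29 of 32 called lower, and prospore membrane and strand exchange genes lie above it, with 20 of 22 and 23 of 26 called higher.

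In the comparison at 9 h, rise and fall mean higher or lower in ime4 than in WT, not a change with time. The genes with the largest rises in ime4 included parts of the recombination and replication machinery and of the bud neck and cell surface. MEI5 (chromosome XVI, 320962 to 321630), whose product works with Sae3 to load the recombinase Dmc1, had 1460, 1551 and 1549 CPM in ime4 libraries and 106, 102 and 107 CPM in WT libraries, a log2 fold change of 3.86 ± 0.499 (adjusted p = 2.14e-09). POL12 (chromosome II, 151493 to 153610), the B subunit of DNA polymerase alpha, had 458, 290 and 402 CPM in ime4 and 35.4, 33.9 and 44.1 CPM in WT. PRY3 (chromosome X, 291336 to 293981), a cell wall protein of the CAP family that binds sterols, had 142, 88.8 and 125 CPM in ime4 and 5.5, 7.09 and 7.77 CPM in WT, the largest log2 rise that the naming rule admitted (4.13 ± 0.308, adjusted p = 2.18e-16). In these 3 genes every ime4 library was several times above every WT library. The rule for naming the largest rises and falls admitted only genes without overlap.

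The bud neck gave 2 further genes. GIN4, a kinase needed for septin organisation, had 96.2, 105 and 72.2 CPM in ime4 and 6.76, 8.69 and 7.20 CPM in WT. HOF1, an F-BAR protein of cytokinesis, had 123, 104 and 144 CPM in ime4 and 10.8, 9.68 and 13.3 CPM in WT. Both differed by over 3 log2 units, at 3.60 ± 0.247 (adjusted p = 1.68e-17) and 3.46 ± 0.310 (adjusted p = 6.72e-14). IML3, a protein of the pericentromeric kinetochore, stood at 26.7, 28.1 and 31.5 CPM in ime4 and 2.99, 2.74 and 2.78 CPM in WT (log2 fold change 3.34, adjusted p = 2.57e-20). The remaining genes of the 12 largest rises were UIP5 (3.67), FMP52 (3.64), OPI9 (3.47), the pheromone-regulated gene PRM4 (3.46), the cell surface protease gene YPS3 (3.45) and ANS1 (3.38). OPI9 overlaps VRP1 on the other strand over 761 bases, and the strand setting of the authors' counting is not given in the sources used here, so the reads of OPI9 and VRP1 cannot be told apart. YPS3 has such an overlap of 30 bases.

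As differences from WT at 9 h, the largest falls were far larger than the largest rises. DDR2 (chromosome XV, 231570 to 231755), a small gene turned on by many stresses, had 13.92, 13.95 and 7.744 CPM in ime4 and 6539, 7700 and 7089 CPM in WT, a log2 fold change of -9.22 ± 0.768 (adjusted p = 6.99e-15). DIT1 (chromosome IV, 1274602 to 1276212), which encodes the first enzyme of dityrosine synthesis for the outer spore wall, had 101, 77.1 and 98.6 CPM in ime4 and 24090, 28960 and 28930 CPM in WT, a log2 fold change of -8.21 ± 0.534 (adjusted p = 2.74e-18). In both genes every WT library was far above every ime4 library. The ratio of the means, WT over ime4, was 599 for DDR2 and 296 for DIT1.

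Genes of the cell wall and plasma membrane were among the rest. CWP2 (chromosome XI, 259253 to 259531), a major mannoprotein of the wall, had 45.4, 44.6 and 31.8 CPM in ime4 and 4935, 4768 and 4411 CPM in WT. TIP1, another mannoprotein of the wall, had 85.9, 102 and 73.0 CPM in ime4 and 6314, 6626 and 5451 CPM in WT. FMP45, a membrane protein of the eisosome family, had 4.51, 8.74 and 4.69 CPM in ime4 and 2021, 1696 and 1427 CPM in WT. All 3 fell by more than 6 log2 units, CWP2 by 6.86 ± 0.402, TIP1 by 6.14 ± 0.375 and FMP45 by 8.14 ± 0.663. The remaining falls among the 12 largest, beside IME4 itself, were FAT3 (-6.91), a gene of fatty acid uptake, the nucleolar NSR1 (-6.59), RFU1 (-6.11), which encodes an inhibitor of the deubiquitinase Doa4, ICY1 (-6.03), the 60S assembly factor gene MAK16 (-5.83) and TMA19 (-5.82), whose product associates with ribosomes. NSR1 overlaps the open reading frame YGR160W on the other strand over 584 bases, with the same limit as for OPI9.

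**Figure D2:**
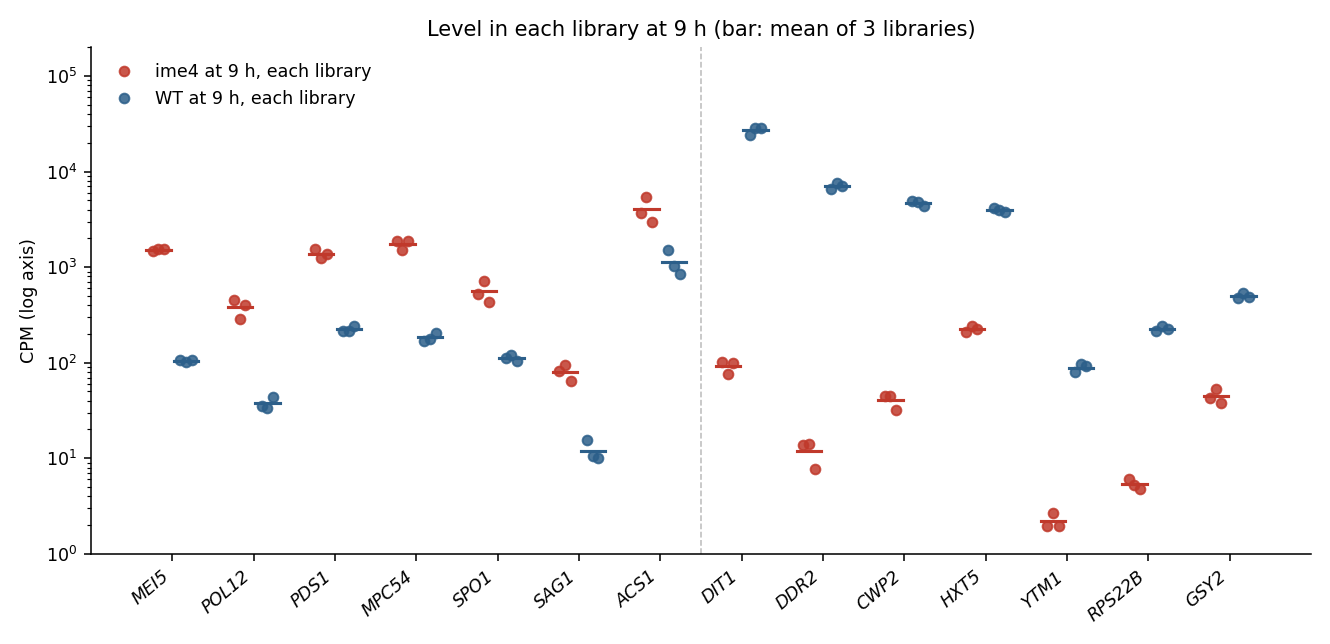
CPM on a logarithmic axis in each library at 9 h, ime4 left (red) and WT right (blue) for each gene, with the mean of 3 libraries as a bar. In each of the 14 genes the libraries of the strains do not overlap: ime4 is above WT for the 7 genes on the left, such as MEI5, and below it for the 7 on the right, such as DIT1 and DDR2. For MEI5, POL12, DIT1, DDR2 and CWP2 the naming rule required such separation, which 79.8% of all genes tested show.

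The cascade works through URS1 and MSE elements, and other gene groups have elements of their own. Shown are 5 promoters, each with the element of its gene group in capitals, for genes that rose (MEI5, POL12, GAS2) or fell (YTM1, DDR2). Those of POL12, YTM1 and DDR2 hold elements of S-phase, ribosome biogenesis and stress genes, which are not part of the cascade described above. The sequences run from 250 bases before to 50 bases after the annotated start codon position, 5′ to 3′ on the gene's strand, and come from the RefSeq R64 genome of strain S288C. SK1 differs from S288C in places, so these are not the sequences of the strains measured.
MEI5, chrXVI:321581-321880, minus strand, with a URS1 core (GGCGGC, read here from the other strand) 126 bases before the start, follows on its own line.
MEI5: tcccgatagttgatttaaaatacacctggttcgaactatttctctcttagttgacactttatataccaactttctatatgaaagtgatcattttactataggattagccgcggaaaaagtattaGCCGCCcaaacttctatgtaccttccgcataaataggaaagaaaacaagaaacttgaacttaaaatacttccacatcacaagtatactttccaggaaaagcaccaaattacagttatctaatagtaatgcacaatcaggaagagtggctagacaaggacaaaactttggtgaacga
POL12, chrII:153561-153860, minus strand, holds 2 MluI cell cycle boxes (MCB, ACGCGT), the element of S-phase genes, the first 222 bases before the start.
POL12: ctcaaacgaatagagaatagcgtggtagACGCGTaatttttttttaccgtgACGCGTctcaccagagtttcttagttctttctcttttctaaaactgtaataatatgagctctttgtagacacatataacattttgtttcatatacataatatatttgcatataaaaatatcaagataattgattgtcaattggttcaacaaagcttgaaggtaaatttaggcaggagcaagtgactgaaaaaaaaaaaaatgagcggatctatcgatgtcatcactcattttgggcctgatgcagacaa
GAS2, chrXII:815844-816143, plus strand, holds an MSE core (GNCACAAA, on the other strand) 145 bases before the start.
GAS2: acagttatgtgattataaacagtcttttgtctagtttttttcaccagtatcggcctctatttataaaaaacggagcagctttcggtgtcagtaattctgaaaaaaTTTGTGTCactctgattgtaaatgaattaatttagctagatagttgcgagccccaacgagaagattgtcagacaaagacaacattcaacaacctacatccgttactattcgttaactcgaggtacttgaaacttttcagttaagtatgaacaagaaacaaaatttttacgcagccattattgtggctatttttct
YTM1, chrXV:832563-832862, plus strand, holds 3 PAC elements (GATGAG, on the other strand), the element of ribosome biogenesis genes, the first 142 bases before the start.
YTM1: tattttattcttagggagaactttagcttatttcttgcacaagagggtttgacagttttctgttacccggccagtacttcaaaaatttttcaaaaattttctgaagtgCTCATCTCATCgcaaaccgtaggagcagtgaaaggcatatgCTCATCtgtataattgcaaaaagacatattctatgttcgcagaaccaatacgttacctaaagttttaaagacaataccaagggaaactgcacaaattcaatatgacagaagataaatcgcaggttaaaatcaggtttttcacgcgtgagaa
DDR2, chrXV:231706-232005, minus strand, holds 3 stress response elements (STRE, AGGGG, on the other strand), the first 248 bases before the start.
DDR2: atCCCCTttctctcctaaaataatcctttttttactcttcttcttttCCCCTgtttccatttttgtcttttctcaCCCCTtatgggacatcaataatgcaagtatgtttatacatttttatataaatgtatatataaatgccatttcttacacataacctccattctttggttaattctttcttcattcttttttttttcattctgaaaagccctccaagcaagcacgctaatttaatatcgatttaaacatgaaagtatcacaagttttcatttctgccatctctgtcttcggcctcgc

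Each motif was searched for on both strands of the same 300 bases in all genes. An MSE core stood in 13 of 22 spore wall promoters (59.1%) and in 10 of 22 prospore membrane promoters (45.5%), against 4.45% of the 5501 tested genes that had a promoter. The URS1 core stood in 11 of 26 strand exchange promoters (42.3%), against 4.80% of tested genes. The MCB stood in 12 of 26 DNA replication promoters (46.2%), against 3.33%, the PAC in all 32 ribosome biogenesis promoters, against 19.8%, and the STRE in 16 of 26 stress and reserve carbohydrate promoters (61.5%), against 21.9%. Between the directions of change, the MSE core stood in 6.28% of genes called higher in ime4 and 2.05% of genes called lower, and the PAC in 15.7% of those higher and 25.6% of those lower. A match describes the letters in this window only. YTM1 is described with its group below. The window of YTM1 also holds an MCB, after the start of the gene.

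Genes of meiotic entry were mostly higher in ime4. In the list of entry regulators 13 of 15 members were called higher and 2 lower, with a median log2 fold change of 1.27. HST1, the deacetylase that serves the Sum1 repressor of middle genes, had 1084, 792 and 1096 CPM in ime4 and 266, 279 and 290 CPM in WT (log2 fold change 1.83 ± 0.241, adjusted p = 3.09e-09). SUM1 itself went the other way, with 115, 96.8 and 111 CPM in ime4 and 264, 329 and 274 CPM in WT (-1.42 ± 0.145, adjusted p = 2.85e-12). RIM11, a kinase that acts on Ime1 and Ume6, was at 220, 223 and 205 CPM in ime4 and 109, 96.0 and 99.8 CPM in WT. IME1 had 1888, 2293 and 1206 CPM in ime4 and 451, 543 and 563 CPM in WT, a log2 fold change of 1.79 ± 0.260 (adjusted p = 3.17e-08), and IME2 differed by 2.19 ± 0.395 (adjusted p = 2.76e-06).

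The partners of Ime4 in the methyltransferase complex did not follow IME4 down. All 5 other members measured were called higher in ime4, with a median log2 fold change of 1.33. VIR1 had 463, 555 and 343 CPM in ime4 and 64.4, 63.3 and 57.3 CPM in WT (2.88 ± 0.224, adjusted p = 8.76e-16). KAR4, which also serves karyogamy in mating cells, had 90.5, 152 and 98.6 CPM in ime4 and 49.5, 40.3 and 46.4 CPM in WT (1.33 ± 0.154, adjusted p = 1.21e-10). SLZ1 averaged 3049 CPM in ime4 and 714 CPM in WT, and MUM2 and DYN2 differed by less than 1 log2 unit (0.76 and 0.96). SLZ1 and MUM2 were named after their values had been seen. PHO92, the reader, had 1742, 1622 and 1832 CPM in ime4 and 414, 458 and 504 CPM in WT.

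Recombination genes were higher in ime4 nearly throughout. Of the 17 members of the list for double-strand breaks and the chromosome axis, 16 were called higher and 1 lower, with a median of 1.52. REC8, the meiotic cohesin subunit, averaged 1319 CPM in ime4 and 194 CPM in WT (2.76), and HOP1, an axis protein, averaged 988 CPM in ime4 and 237 CPM in WT (2.06). SPO11, the enzyme that makes the breaks, differed by 1.19 (adjusted p = 0.00026). RAD50, of the complex that processes them, had 74.7, 97.4 and 66.8 CPM in ime4 and 22.7, 16.2 and 17.1 CPM in WT. The exception was SPP1, which links break formation to histone methylation, with 37.6, 42.5 and 48.0 CPM in ime4 and 75.6, 90.6 and 94.6 CPM in WT (-1.02 ± 0.115, adjusted p = 4.80e-11). REC8, HOP1 and SPO11 were named after their values had been seen.

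In the list for strand exchange and crossovers, 23 of 26 members were called higher and 1 lower, with a median of 1.61. DMC1, the meiotic recombinase, averaged 1640 CPM in ime4 and 417 CPM in WT (1.98). RAD54, a DNA translocase of recombination, had 165, 156 and 128 CPM in ime4 and 39.9, 42.1 and 39.9 CPM in WT. MLH3, of the crossover resolvase, had 416, 409 and 373 CPM in ime4 and 127, 93.0 and 111 CPM in WT (1.86 ± 0.173, adjusted p = 2.25e-13). The members of the ZMM group, such as MSH4 (1.59), MSH5 (1.144) and ZIP1 (1.23), were all called higher. DMC1 and the ZMM genes were named after their values had been seen. The list took 0.582%, 1.00% and 0.461% of all counts in the ime4 libraries and 0.207% to 0.249% in the WT libraries.

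DNA replication genes were called higher for 19 of 26 members and lower for 1, PRI1 of the primase, with a median of 1.16. MCM5, of the replicative helicase, had 611, 438 and 674 CPM in ime4 and 133, 119 and 137 CPM in WT (2.15 ± 0.184, adjusted p = 1.67e-14). MCM4, of the same helicase, had 122, 114 and 132 CPM in ime4 and 47.6, 46.0 and 53.6 CPM in WT (1.32). CDC6, which loads that helicase, was at 14.7, 13.1 and 16.7 CPM in ime4 and 2.91, 3.13 and 1.96 CPM in WT (2.47), but it overlaps YJL195C on the other strand. RNR1, the large subunit of ribonucleotide reductase, averaged 62.8 CPM in ime4 and 43.7 CPM in WT and was not called (adjusted p = 0.15; named after its values had been seen). Most histone genes were not called: of 11, 3 were called higher and 1 lower, and 7 were not called, with a median of -0.12 that turned positive when ime4 replicate 2 (0.09), ime4 replicate 3 (0.16) or WT replicate 2 (0.43) was left out. The linker histone HHO1 (1.47 ± 0.218, adjusted p = 5.15e-08), the centromeric CSE4 (0.86) and HHT2 (0.81) were higher. HTB1 was lower (-0.64, adjusted p = 0.0428), a call lost with DESeq2's size factors (adjusted p = 0.0710) and without any 1 library other than WT replicate 1 (-0.45 without WT replicate 2, adjusted p = 0.203).

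Genes of the meiotic divisions rose as well, with 14 of 19 members called higher, 0 lower and a median of 1.42. Securin, PDS1, had 1532, 1258 and 1360 CPM in ime4 and 217, 216 and 245 CPM in WT (2.61 ± 0.346, adjusted p = 3.76e-09). The B-type cyclin gene CLB3, whose protein is held back to the second division, had 2586, 1555 and 2841 CPM in ime4 and 443, 467 and 528 CPM in WT (2.28 ± 0.382, adjusted p = 6.65e-07). In both genes the strains did not overlap, and replicate 2 was the lowest ime4 library. MND2, an inhibitor of the Ama1 form of the anaphase-promoting complex, had 44.5, 63.0 and 38.7 CPM in ime4 and 19.4, 12.2 and 13.1 CPM in WT. AMA1 was not called, at 14070 CPM in ime4 and 8344 CPM in WT (adjusted p = 0.079). It was named after its values had been seen.

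Prospore membrane genes were the list with the highest median, 1.74, except without ime4 replicate 3, where it was 1.67 and strand exchange genes (1.87) and those of breaks and axis (1.80) lay above it. Of its 22 members, 20 were called higher and 0 lower, and each of these 20 rose at least 2-fold. MPC54 (chromosome XV, 665785 to 667179), a spindle pole component from which the membrane grows, had 1892, 1526 and 1879 CPM in ime4 and 168, 177 and 207 CPM in WT (3.26 ± 0.325, adjusted p = 1.52e-12). SPO1, a phospholipase-like protein, had 522, 724 and 429 CPM in ime4 and 113, 120 and 104 CPM in WT (2.31 ± 0.246, adjusted p = 1.08e-11). ADY3, of the leading edge of the membrane, had 3086, 2355 and 3423 CPM in ime4 and 688, 697 and 757 CPM in WT (2.05). The members that were not called were SPR3, at 5015 CPM in ime4 and 3191 CPM in WT, and SPS1, at 8903 CPM in ime4 and 5127 CPM in WT. The 22 genes together took 4.52% to 5.67% of all counts in ime4 and 2.10% to 2.31% in WT. The mean of ime4 was at its highest at 9 h, the last time sampled, for 21 of the 22, and the WT mean for 0.

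The spore wall list had genes on both sides. It had 15 members called higher and 4 lower out of 22, with a median of 1.47. The chitin deacetylase genes CDA1 (1.88) and CDA2 (1.64), which make chitosan, were higher, with 4709 and 6165 CPM in ime4 and 1281 and 1974 CPM in WT, and so were the glucan-remodelling genes GAS2 (1.40) and GAS4 (1.58). GAS2 had 4214, 2729 and 5125 CPM in ime4 and 1390, 1502 and 1685 CPM in WT, and its adjusted p of 0.0216 became 0.0551 without WT replicate 1. Of the dityrosine layer, DIT1 was lower as given above, and DIT2, the next enzyme of that pathway, had 152, 101 and 203 CPM in ime4 and 2720, 3209 and 3237 CPM in WT (-4.33 ± 0.401, adjusted p = 1.73e-13). DIT2 overlaps YDR401W on the other strand. SHC1, an activator of chitin synthase in sporulation, had 63.0, 98.5 and 81.5 CPM in ime4 and 1351, 1935 and 1796 CPM in WT (-4.38 ± 0.325, adjusted p = 1.77e-16), and RRT8 was lower by 0.95. DTR1, which exports bisformyl dityrosine, was on the other side at 4518 CPM in ime4 and 1178 CPM in WT (1.94). CDA1, CDA2, GAS4 and DTR1 were named after their values had been seen.

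The late sporulation list was evenly divided, with 4 of 15 members called higher, 4 lower and a median of -0.26, which was 0.04 without ime4 replicate 2. AQY1, the spore aquaporin, had 48.5, 56.9 and 43.5 CPM in ime4 and 1710, 1783 and 1521 CPM in WT (-5.07 ± 0.498, adjusted p = 1.02e-12). The catalase T gene CTT1 had 140, 90.1 and 136 CPM in ime4 and 1195, 697 and 663 CPM in WT (-2.81), and GAT3, a GATA-family protein gene, had 256, 198 and 380 CPM in ime4 and 609, 992 and 1015 CPM in WT (-1.65). SPS100, often used as the marker of late sporulation, rested on 1 library: it had 10.1, 10.8 and 8.56 CPM in ime4 and 135, 8.46 and 5.89 CPM in WT. Its log2 fold change of -2.34 became 0.47 without WT replicate 1 (adjusted p = 0.125). The remaining 7 members were not called, among them SPS4, the most abundant of the list at 58490 CPM in ime4 and 103500 CPM in WT (adjusted p = 0.23; named after its values had been seen).

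**Figure D3:**
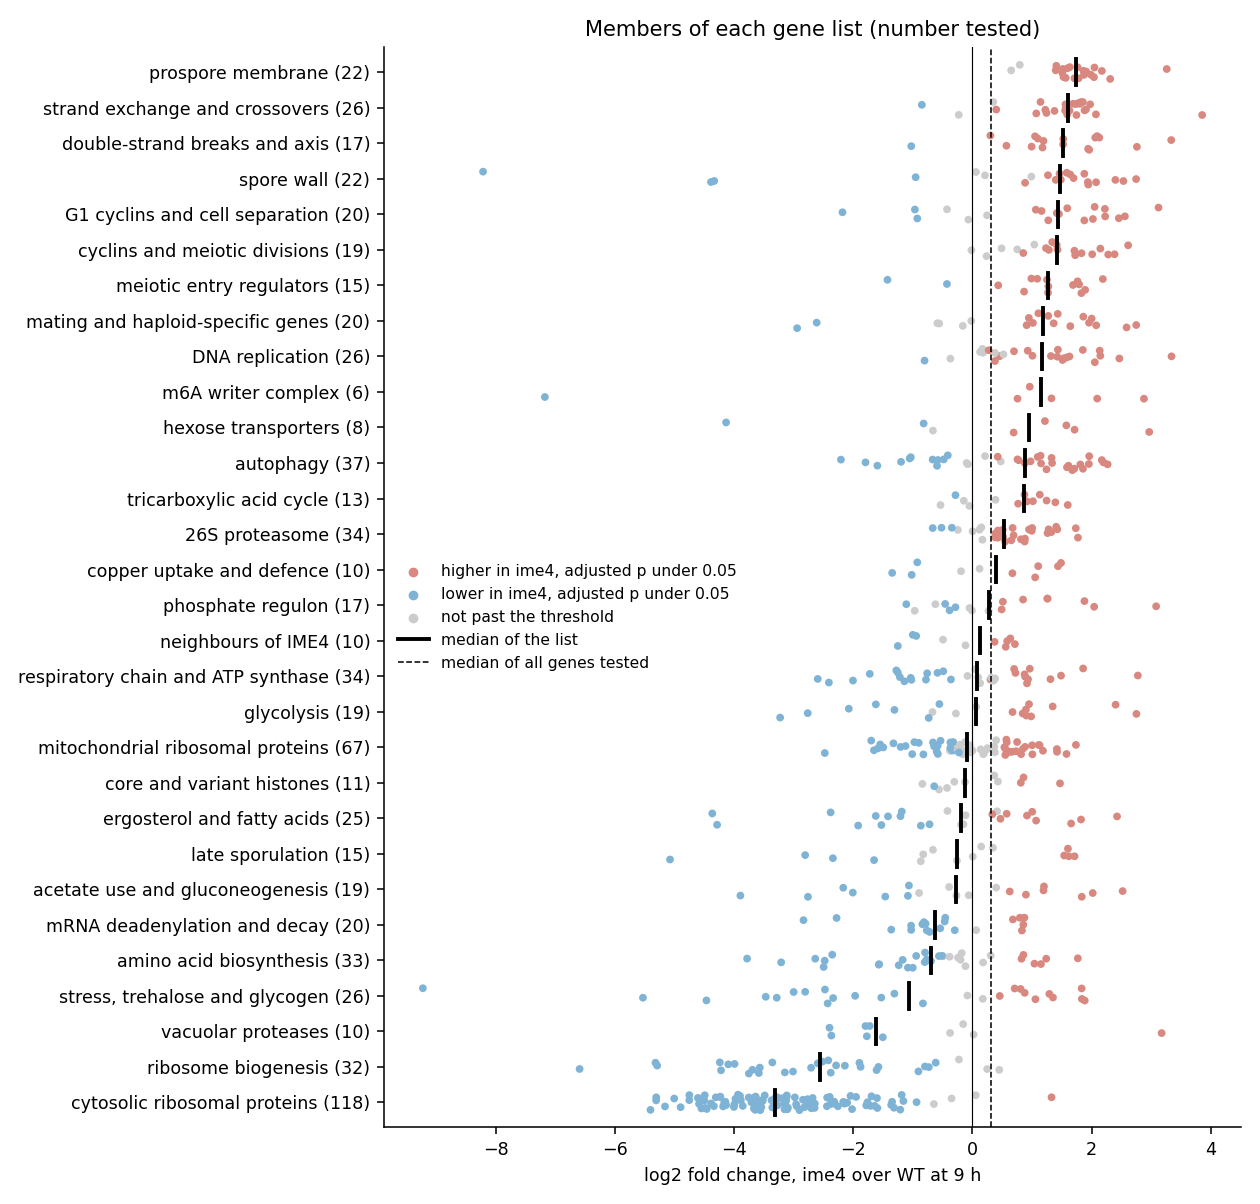
Log2 fold change of ime4 over WT at 9 h for the members of 30 gene lists, sorted by the median of the list (black bar), with the number of members tested in brackets. Prospore membrane genes head the order at a median of 1.74 and cytosolic ribosomal protein genes end it at -3.31, against 0.31 for all genes (dashed line). The medians of the glycolysis, respiratory chain, phosphate and neighbours lists change sign under another scaling or when only the 6 libraries are fitted.

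Genes of the cytosolic ribosome were lower in ime4 almost without exception. Of 118 ribosomal protein genes, 114 were called lower, 113 of them at least 2-fold, and 1 was called higher, with a median of -3.31. RPS22B (chromosome XII, 856442 to 857317) had 6.08, 5.28 and 4.79 CPM in ime4 and 216, 243 and 224 CPM in WT (-5.40 ± 0.307, adjusted p = 3.92e-20). RPS1A had 24.2, 23.5 and 19.0 CPM in ime4 and 500, 405 and 415 CPM in WT (-4.30 ± 0.279, adjusted p = 2.47e-18). RPL15B was the exception, at 179 CPM in ime4 and 71.1 CPM in WT (1.33), and RPS28B (0.06), RPP1A (-0.35) and RPS7B (-0.65) were not called. Paired copies such as RPS22A and RPS22B may share reads. The list took 0.164%, 0.201% and 0.136% of all counts in ime4 and 1.82%, 1.38% and 1.23% in WT. In WT at 7 h the share was 0.124% to 0.133%, just under the shares of ime4 at 9 h.

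Ribosome biogenesis genes went with them, 29 of 32 called lower and 0 higher, with a median of -2.56. YTM1, an assembly factor of the 60S subunit whose promoter is shown above, had 1.96, 2.67 and 1.94 CPM in ime4 and 80.0, 95.8 and 91.5 CPM in WT (-5.32 ± 0.407, adjusted p = 5.19e-16). NHP2, of the snoRNP that makes pseudouridine, had 11.1, 11.5 and 16.2 CPM in ime4 and 192, 275 and 254 CPM in WT (-4.22 ± 0.333, adjusted p = 1.32e-15). NOP58, a core snoRNP protein, had 8.62, 8.22 and 7.13 CPM in ime4 and 277, 351 and 311 CPM in WT (-5.29), with 254 bases shared with YOR309C on its own strand. NOP4 (0.25), DBP3 (0.45) and DRS1 (-0.23) were not called. Mitochondrial ribosomal protein genes showed no such shift: 21 of 67 were called higher and 25 lower, with a median of -0.09 that turned positive without single libraries (0.08 without WT replicate 3). MRPL6 (-2.48), MRPL17 (-1.70), MRP2 (-1.58) and MRPS16 (-1.55) had the smallest adjusted p.

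Stress and reserve carbohydrate genes were mixed, with 10 of 26 called higher and 14 lower, against 46.9% and 33.3% of all genes. Their median was -1.07. Genes for glycogen and trehalose enzymes named here were lower. The glycogen synthase genes GSY2 and GSY1 differed by -3.47 ± 0.256 (adjusted p = 1.57e-16) and -2.999 ± 0.244 (adjusted p = 3.34e-15). GSY2 had 42.9, 53.7 and 38.2 CPM in ime4 and 474, 531 and 488 CPM in WT. TPS1, trehalose-6-phosphate synthase, had 223, 251 and 252 CPM in ime4 and 987, 923 and 929 CPM in WT (-1.97), and glycogen phosphorylase, GPH1, averaged 46.8 CPM in ime4 and 1032 CPM in WT (-4.46). The heat-shock genes SSA4 (1.89) and HSP26 (1.83) were higher, whereas the membrane stress gene HSP12 was lower (-1.53). GPH1, SSA4, HSP26 and HSP12 were named after their values had been seen. The list took 0.729% to 1.07% of all counts in ime4 and 1.75% to 2.15% in WT.

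Carbon metabolism held genes on both sides. In glycolysis 9 of 19 members measured were called higher and 7 lower, shares near the 46.9% and 33.3% of all genes, and the list median of 0.06 became -0.12 with library totals alone. Both subunits of phosphofructokinase were higher, PFK1 with 760, 747 and 1018 CPM in ime4 and 129, 100 and 146 CPM in WT (2.75 ± 0.248, adjusted p = 8.08e-14), and PFK2 by 2.40. The sugar kinases were lower, HXK1 with 55.8, 68.3 and 49.9 CPM in ime4 and 564, 541 and 522 CPM in WT (-3.23 ± 0.279, adjusted p = 2.21e-14) and GLK1 by 2.07 log2 units, though both genes overlap other open reading frames on their own strand. Of the hexose transporters, HXT5, the one made in slow growth and starvation, had 210, 242 and 227 CPM in ime4 and 4118, 3989 and 3803 CPM in WT (-4.13 ± 0.333, adjusted p = 2.56e-15), and the galactose permease GAL2 had 41.8, 48.4 and 36.0 CPM in ime4 and 6.13, 5.64 and 4.34 CPM in WT (2.97). Members of this family are alike in sequence, so their separate values are uncertain, as are those of paralogous enzymes. In all, 5 of 8 transporters were called higher and 2 lower, or 1 lower when any 1 of the 6 libraries was left out.

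Genes of acetate use were 7 higher and 7 lower out of 19, against 46.9% higher and 33.3% lower of all genes. ACS1, acetyl-CoA synthetase, had 3694, 5395 and 2986 CPM in ime4 and 1505, 1022 and 857 CPM in WT (1.84 ± 0.245, adjusted p = 4.44e-09). SIP4, an activator of gluconeogenic genes, had 1126, 1359 and 990 CPM in ime4 and 217, 215 and 173 CPM in WT (2.52 ± 0.187, adjusted p = 1.96e-16). ADR1, an activator of genes for non-fermentable carbon, was lower, with 137, 153 and 115 CPM in ime4 and 1020, 875 and 845 CPM in WT (-2.76), as was the peroxisomal isocitrate dehydrogenase gene IDP3 (-3.89). In the tricarboxylic acid cycle 8 of 13 members were called higher and 1 lower, with LSC1 (1.601), KGD1 (1.39), LSC2 (1.25) and KGD2 (1.13) leading by adjusted p. The 1 lower became 2 with library totals alone and 3 when only the 6 libraries were fitted. It became 0 with DESeq2's size factors, with DESeq2 itself, and without any 1 library other than WT replicate 1. The respiratory chain gave 12 higher and 15 lower of 34, against the same shares of all genes as above. Its median of 0.075 became -0.061 with library totals alone and -0.203 when only the 6 libraries were fitted. Cytochrome c, CYC1, had 183, 139 and 208 CPM in ime4 and 26.2, 23.6 and 27.4 CPM in WT (2.78), and QCR10 of complex III had 24.9, 36.8 and 22.8 CPM in ime4 and 176, 169 and 167 CPM in WT (-2.59). COX12 (1.86) was higher and QCR8 (-2.00) lower.

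Protein breakdown genes were more often called higher than lower in the fit of all libraries, apart from the vacuolar proteases. Of 34 proteasome genes 26 were called higher and 3 lower, against 46.9% and 33.3% of all genes. Their median was 0.53, against 0.31 for all genes. The count of 26 fell to 17 with library totals alone, where 2402 of all 5822 genes were called higher. It fell to 12 when only the 6 libraries were fitted, where 2183 of all 5619 genes were called higher. RPT3, an ATPase of the cap, had 320, 457 and 315 CPM in ime4 and 122, 95.1 and 103 CPM in WT (1.77 ± 0.141, adjusted p = 1.81e-15), and RPN8, of the lid, had 1129, 1139 and 1323 CPM in ime4 and 383, 335 and 360 CPM in WT (1.74). Of 37 autophagy genes 22 were called higher and 11 lower, against 46.9% and 33.3% of all genes. ATG27, a membrane protein of the pathway, had 136, 156 and 136 CPM in ime4 and 33.6, 25.5 and 29.7 CPM in WT (2.27 ± 0.128, adjusted p = 3.18e-20), and ATG7, the activating enzyme, differed by 2.20. ATG34, a receptor of selective autophagy, was lower (-2.21), but it overlaps a gene on the other strand. Of 10 vacuolar protease genes 6 were called lower, among them APE3 with 458, 573 and 611 CPM in ime4 and 2894, 2853 and 2904 CPM in WT (-2.40 ± 0.166, adjusted p = 1.91e-17). The subtilisin-like protease gene YSP3 was the only one called higher, with 182, 228 and 166 CPM in ime4 and 21.7, 21.7 and 20.5 CPM in WT (3.18).

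Biosynthetic genes leaned lower. Of 33 amino acid genes 6 were called higher and 19 lower, against 46.9% and 33.3% of all genes, with a median of -0.69. ARO4, of the entry to aromatic amino acids, had 21.4, 36.7 and 20.1 CPM in ime4 and 341, 388 and 351 CPM in WT (-3.78 ± 0.355, adjusted p = 2.61e-13), and HIS7 had 8.92, 15.5 and 10.5 CPM in ime4 and 84.0, 119 and 122 CPM in WT (-3.21). ARG8 (-2.64) and TRP2 (-2.50) were lower too, and TRP2 overlaps a gene on the other strand. In sterol and fatty acid synthesis 9 of 25 were called higher and 11 lower, with a median of -0.19 that was 0.001 without ime4 replicate 1. The enzymes split: ERG24 (-4.36 ± 0.276, adjusted p = 1.11e-18), ERG3 (-4.28) and ERG1 (-2.38) were lower. ERG13, hydroxymethylglutaryl-CoA synthase at the head of the pathway, was higher, with 606, 710 and 588 CPM in ime4 and 159, 87.3 and 107 CPM in WT (2.43 ± 0.201, adjusted p = 5.77e-15).

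Among genes of mRNA decay, 14 of 20 were called lower and 5 higher, against 33.3% and 46.9% of all genes, with a median of -0.63. LSM1, of the ring that promotes decapping, had 17.9, 23.5 and 17.3 CPM in ime4 and 120, 150 and 151 CPM in WT (-2.83 ± 0.198, adjusted p = 2.66e-17), and the poly(U)-binding PUB1 had 40.6, 36.5 and 50.6 CPM in ime4 and 181, 223 and 215 CPM in WT (-2.28). The decapping gene DCP1 (-1.36) and its enhancer EDC3 (-1.03) were lower by less. In the phosphate list 8 of 17 were called higher and 4 lower, against 46.9% and 33.3% of all genes. The 4 lower became 2 without ime4 replicate 2, ime4 replicate 3 or WT replicate 2. PHO2, a homeodomain activator, had 407, 345 and 409 CPM in ime4 and 52.2, 38.9 and 45.8 CPM in WT (3.08 ± 0.207, adjusted p = 6.75e-18). The vacuolar phosphatase gene PHO8 differed by 2.04. PHO4, the partner of Pho2, was lower (-1.11). In the copper list 5 of 10 were called higher and 3 lower, shares near the 46.9% and 33.3% of all genes, among them the chaperone gene ATX1 (1.44), the activator CUP2 (-1.34), which overlaps a gene on the other strand, and superoxide dismutase SOD1 (-0.92).

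Genes of G1 and cell separation, and those of mating, are best known from dividing and from haploid cells. They were followed for signs of other cell states. Some, such as GPA1, were also found in WT at 9 h, so the lists by themselves do not mark such states. Of the 20 G1 and separation genes 14 were called higher and 3 lower, against 46.9% and 33.3% of all genes, with a median of 1.44. CLN2, a G1 cyclin, was low in both strains, at 17.7, 21.1 and 13.3 CPM in ime4 and 2.99, 2.29 and 3.60 CPM in WT (2.56), and EGT2, a separation gene, had 106, 227 and 239 CPM in ime4 and 23.3, 17.1 and 25.2 CPM in WT (3.12 ± 0.311, adjusted p = 1.52e-12). CTS1, the separation chitinase, was lower (-2.18). Of 20 mating and haploid genes 14 were called higher and 2 lower, against the same shares of all genes, with a median of 1.19. Their summed level was 1811, 1396 and 2102 CPM in ime4 and 768, 806 and 868 CPM in WT. The alpha-agglutinin gene SAG1 had 82.22, 94.99 and 64.80 CPM in ime4 and 15.6, 10.4 and 9.98 CPM in WT (2.75 ± 0.177, adjusted p = 2.11e-18), and the G protein subunit gene GPA1 had 9.80, 9.19 and 12.84 CPM in ime4 and 72.1, 84.2 and 87.0 CPM in WT (-2.94). The a-factor receptor gene STE3 and alpha-factor receptor gene STE2 averaged 138 and 28.0 CPM in ime4 and 35.4 and 28.4 CPM in WT. CTS1 and STE3 overlap genes on the other strand, with the same limit as for OPI9. AGA2 and MF(ALPHA)2, markers of haploid cells, stayed at or under 3.06 CPM in every library, unlike SAG1 and STE3. They do not stand for the list, of which 14 of 20 members were called higher. STE2, AGA2 and MF(ALPHA)2 were named after their values had been seen. The part of such transcripts in the other results was not tested.

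Genes beside IME4 and common marker genes were looked at for effects of the mutation at its locus. Of 10, 5 were called higher and 3 lower, shares near those of all genes (46.9% and 33.3%), with COX13 at 124, 143 and 123 CPM in ime4 and 314, 294 and 319 CPM in WT (-1.25) and CDC55 at 0.71. The 5 higher became 1 with library totals alone and 3 without ime4 replicate 2.

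The genes that differed were sorted by when they were at their highest in WT before 9 h, a sorting that used only the WT libraries of 0 to 7 h. Of the 385 genes with their WT maximum at 6 h, 86.2% were called higher in ime4 at 9 h and 4.16% lower, with a median of 1.62. Of the 1647 with their maximum at 7 h, 62.1% were higher and 15.6% lower. Of the 1544 genes highest at 0 h and the 655 highest at 2 h, 27.7% and 24.9% were higher and 53.9% of each class lower, with medians of -0.59 and -0.61. The classes of 3 h and 5 h lay between, at 51.2% and 46.5% higher. Over the whole course the ime4 mean was at its highest at 9 h for 1686 genes and the WT mean for 890, and the maximum came later in ime4 for 2405 genes (41.3%), earlier for 1294 and at the same time for 2123.

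**Figure D4:**
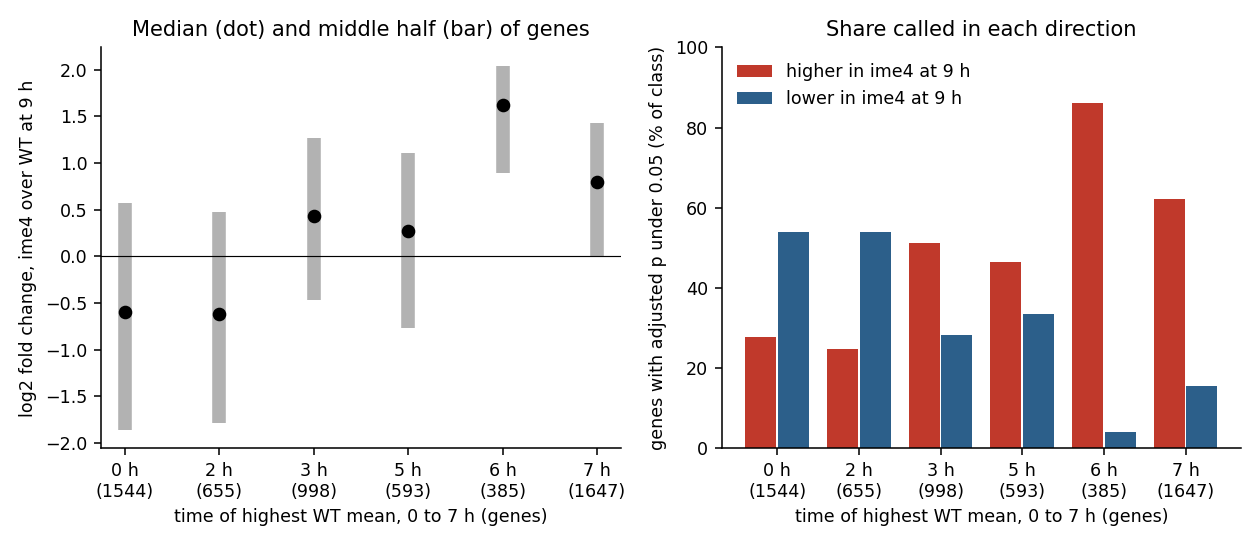
Genes tested, grouped by the time from 0 to 7 h at which the WT mean was highest, with the number of genes in brackets. Left, the median (dot) and the span from the 25th to the 75th percentile (bar) of the log2 fold change of ime4 over WT at 9 h; right, the percentage called higher (red) or lower (blue) in ime4. The class of 6 h stands out with 86.2% higher, and the classes of 0 h and 2 h have more genes lower than higher.

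Set beside each time of the WT course, the ime4 profile at 9 h lay nearest to WT at 6 and 7 h. Across the 5822 genes, Pearson's r of mean log2 CPM was 0.964 with WT at 6 h and 0.961 with WT at 7 h, against 0.789 with WT at 9 h and 0.519 with WT at 0 h. The median absolute log2 difference was 0.394 from WT at 6 h, 0.490 from WT at 7 h and 0.990 from WT at 9 h. The ime4 libraries were not alike in this. Replicate 2 was nearest to WT at 6 h (r = 0.962, against 0.935 at 7 h), replicate 3 to WT at 7 h (0.972, against 0.955 at 6 h), and replicate 1 was about as near to both (0.962 and 0.963). These are descriptions across genes, which are not independent replicates.

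The difference between the strains at 9 h was also set against that at 7 h, gene by gene. It had changed for 4805 genes (82.5%), upward for 2460 (42.3%) and downward for 2345 (40.3%), and this split depends on the scaling: with library totals alone it was 1115 upward and 3930 downward, with a shift of the median by 1.92 log2 units. NDT80 averaged 1010 ± 459 CPM in ime4 at 7 h and 6269 ± 229 CPM in WT at 7 h (SD, n = 3 each), then 3271 ± 608 CPM in ime4 at 9 h and 1014 ± 92.0 CPM in WT at 9 h. The log2 difference moved by 4.32 ± 0.606 (adjusted p = 1.11e-08) and its sign changed between these times. With library totals alone the move was 2.39. For prospore membrane genes the median move was 4.90, and it was upward and called for 21 of 22. Cytosolic ribosomal protein genes moved by a median of -4.46, and 107 of 118 were called downward. Strand exchange genes, in contrast, had a median move of -0.09, with 5 called upward and 4 downward of 26. This move too depends on the scaling. As a share of all counts the list averaged 2.16% at 7 h and 0.682% at 9 h in ime4. In WT it averaged 0.231% at 7 h and 0.228% at 9 h. MEI5 was higher in ime4 at 7 h already: it averaged 1182 ± 241 CPM in ime4 at 7 h and 263 ± 14.8 CPM in WT at 7 h.

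**Figure D5:**
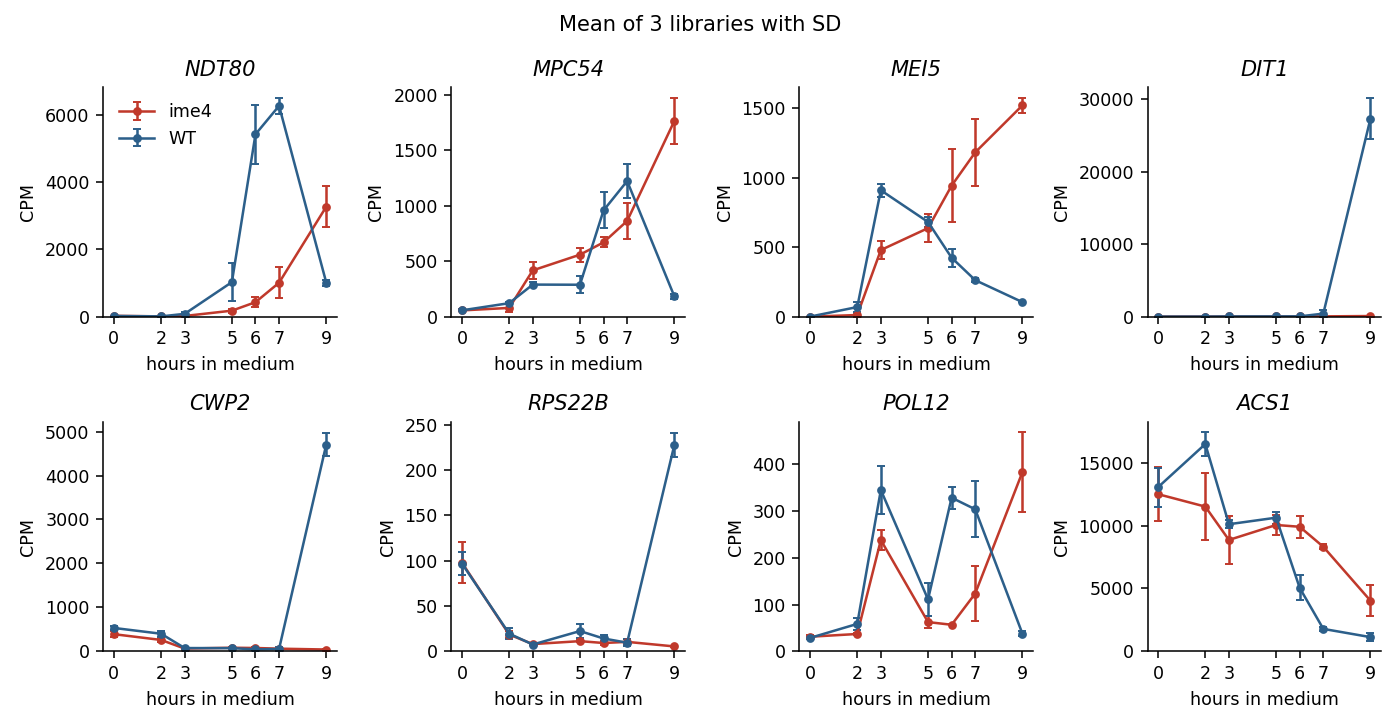
Mean CPM with SD (n = 3 libraries) at 0 to 9 h in sporulation medium for 8 genes, ime4 in red and WT in blue, each panel on its own scale. NDT80, MPC54 and POL12 are past their WT maximum at 9 h and at their highest in ime4; DIT1, CWP2 and RPS22B are high at 9 h in WT and not in ime4; ACS1 falls in both strains and earlier in WT.

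Finally, ime4 was compared with the pho92 mutant at 9 h, where 3821 genes (65.6%) were called, 2042 higher in ime4 (35.1%) and 1779 lower (30.6%). This split too depends on the scaling, with 2609 higher and 1239 lower with library totals alone. The comparison shares its ime4 libraries with that against WT. Strand exchange genes were higher in ime4 for 23 of 26 and lower for 0, with MEI5 at 1520 ± 51.7 CPM in ime4 and 683 ± 94.9 CPM in pho92 (1.15, adjusted p = 0.0227). Prospore membrane genes were called higher for 3 of 22, and NDT80 was not called, at 3271 ± 608 CPM in ime4 and 2497 ± 272 CPM in pho92 (0.39, adjusted p = 0.417). Ribosomal protein genes were lower in ime4 for 88 of 118, with a median of -1.09. DIT1 averaged 92.3 ± 13.3 CPM in ime4 and 10850 ± 4418 CPM in pho92 (-6.88, adjusted p = 9.15e-16), and DDR2 averaged 11.9 ± 3.57 CPM in ime4 and 2342 ± 1216 CPM in pho92 (-7.62). IME1 averaged 1796 ± 549 CPM in ime4 and 512 ± 150 CPM in pho92 (1.81, adjusted p = 4.90e-08).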

How the data were processed

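Poly(A) RNA of 63 libraries (21 groups of strain and time, 3 biological replicates each per the series' design text) was sequenced as 50-nt single reads after stranded library preparation, per the labels' protocols. The authors used TopHat2 2.0.14 with Bowtie, HTSeq 0.6.1 and DESeq2 1.22.1, per the submitters' processing notes. Neither the build nor the strand setting of counting is given in the sources used here. The deposited table holds raw counts per gene for 6088 genes, and the authors' log2 fold changes and p-values from DESeq2 were deposited beside them. Positions of 5575 genes were matched to R64, where 99.9% had the same start, and 126 per-sample columns of other values were not used.

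Counts were fitted with edgeR 4.0.16 (quasi-likelihood test, TMM scaling, R 4.3.3) over all 63 libraries with 1 mean per group, after filterByExpr with a minimum count of 10, which removed 266 genes. P-values were adjusted by Benjamini-Hochberg over the 5822 genes tested and called under 0.05. The SE of a log2 fold change is its size divided by the square root of F. The common biological coefficient of variation was 0.184. The 6 libraries held 14780559 to 18123674 counts. The fit was tested on simulated counts in which few genes differed between the strains at 9 h. In the data 80.2% of genes were called, so that run could not test the scaling. Figures were drawn and tables joined in Python 3.11.15.

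Alternatives were other scalings (DESeq2's size factors, library totals alone), no filter, DESeq2 1.42.0, a fit of the compared libraries alone, a replicate block and leaving out each library. The count of changes of at least 2-fold was added after the data had been seen. The members and the 30 gene lists were chosen with earlier results of these data known. Named were IME4, PHO92, IME1, IME2 and NDT80, the 12 largest called rises and falls with a mean of at least 10 CPM in a strain and no overlap between libraries, up to 4 called members of each list by adjusted p, exceptions of lists, and the 5 largest moves each way between 7 h and 9 h. Other genes are said to have been named after their values were seen. List members without a row in the table (among them TDH3, ENO2, PHO5 and CUP1-1) were not analysed here. Some members of the strand exchange list are counted but not reported by name here.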

Additional observations from a re-analysis of the deposited data

Results flagged for a closer look

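For 14 genes the difference between ime4 and WT at 9 h departed from that at 7 h by the interaction test in edgeR, among the 15 named for this comparison. The 5 largest moves each way were chosen among genes called in this test, so their calls were fixed by the choice. Of the always-named genes, IME4, PHO92, IME2 and NDT80 were called and IME1 was not. Against a background of 82.5% of genes called, such a departure is common in these data.

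The 5 largest upward moves were in HXT14, SRD1, SSP2, GAS2 and GIP1. HXT14 moved by 6.99 log2 units. It averaged 386 CPM in ime4 and 14910 CPM in WT at 7 h, and 9807 CPM in ime4 and 2988 CPM in WT at 9 h, and it overlaps YNL319W on the other strand. SRD1 moved by 6.87. SSP2, needed for the outer spore wall, moved by 6.47, GAS2 by 6.42 and GIP1, a partner of the phosphatase Glc7 in sporulation, by 6.397. GIP1 averaged 359 CPM in ime4 and 10220 CPM in WT at 7 h, and 4970 CPM in ime4 and 1679 CPM in WT at 9 h. The regulators moved less, NDT80 by 4.32, IME2 by 3.13 and PHO92 by 2.63. With library totals alone these moves were 2.39 for NDT80, 1.21 for IME2 and 0.71 for PHO92, and that of PHO92 was not called (adjusted p = 0.305, edgeR). IME4 moved by 2.65, with under 1 CPM in ime4 at both times, and 163 CPM in WT at 7 h and 42.4 CPM in WT at 9 h.

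The 5 largest downward moves were in genes lower in ime4 at 9 h. DDR2 moved by -8.30, RFU1 by -7.65, RPS22A by -7.20, RPL22B by -7.15 and ICY1 by -7.07. RPS22A averaged 12.1 CPM in ime4 and 1.85 CPM in WT at 7 h, and 3.54 CPM in ime4 and 78.4 CPM in WT at 9 h. For DDR2 the WT libraries at 7 h were uneven, at 74.96 ± 94.0 CPM (SD, n = 3).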

How the results depend on the processing

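Over 12 alternatives 4 counts stayed within 1.5 times their reported values. They were the genes called higher and lower against WT, and the totals called for the move and against pho92. The split of the move by direction did not stay within that bound. It was 2460 upward and 2345 downward as reported, and 1115 and 3930 with library totals alone. Without 1 library each, genes called higher numbered 2678 to 2835 and genes called lower 1729 to 1916; under the other settings they numbered 2183 to 2838 and 1876 to 2208. The move between 7 h and 9 h gave 4700 to 4807 and 4764 to 5045 genes, and ime4 against pho92 gave 3493 to 3797 and 3403 to 3860. Of the 1800 values of the 150 named genes at 9 h, 1789 kept direction and call. The log2 fold change of SPS100 ran from -2.761 to 0.469 when 1 library was left out, and the sign reversed without WT replicate 1 (adjusted p = 0.125, edgeR), the library that holds most of its WT reads. Calls were lost for HTB1 and GAS2 as given above, and for TRP1 with library totals alone (0.50) and in the 6 libraries alone (0.36); the cause was not tested. Of the moves between 7 h and 9 h, those of PHO92 (0.71) and IME4 (0.74) lost their call with library totals alone, that of IME4 also without ime4 replicate 1 (1.56), and that of IME1 (-0.14, not called) became -2.02. Of 720 list counts 686 stayed within 1.5 times. Correlations of deviations between libraries of the same replicate number were -0.133, -0.103 and 0.407. Those between different numbers ran from -0.373 to 0.319. Deviations within a group depend on one another, so these values cannot decide whether the numbers pair the libraries. The replicate block gave 2739 genes higher and 1941 lower, 4813 for the move between times and 3844 against pho92. Relative scaling limits every level here, and genes at a few counts carry the largest error.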
